A study of Mus musculus with 4 samples.

Results

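T cells were a small population of the dissociated mouse pituitary, and most of those with a detected coreceptor gene carried CD8. They were taken as cell barcodes with at least 500 UMIs (unique molecular identifiers, each standing for 1 captured transcript) and at most 25% of UMIs from mitochondrial genes. Such a barcode had at least 1 UMI of at least 2 of the genes Cd3e, Cd3d, Cd3g and Trac, no UMI of C1qa, C1qb or Cd79a, and less than 25% of its UMIs from Gh, the growth hormone gene. This rule found 356 T cells among 40044 kept barcodes, a share of 0.889% (exact binomial 95% interval 0.799% to 0.986%). The rule used measured values, so the levels of its genes describe the selection and support nothing.

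Whole pituitaries of male mice were dissociated for droplet single-cell RNA sequencing from the 3′ end. High-fat diet (HFD) animals gave 2 libraries, and normal diet (ND) animals another 2. The mice were 4 weeks old when chosen and were fed for 12 weeks, and each library pooled 3 pituitaries. No transgene, deletion or drug is named for either diet. The labels also name the gonadotroph line Lbt2 for every library, which does not describe these barcodes: they held T cells, B cells, endothelial cells and growth hormone-rich cells. The deposited matrix holds all libraries together, and its barcodes end in a number from 1 to 4 that nothing ties to a library. The diets therefore could not be compared, and the matrix was treated as 1 pooled sample. The barcodes sharing a number are called sets 1 to 4 and are not replicates, so no test between groups was possible and all intervals cover counting error only, not variation between cells or animals.

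T cells recognise antigen through the T cell receptor, a pair of variable chains whose signal is passed into the cell by the CD3 chains. CD8 T cells read peptides on MHC class I and can kill through granzymes and perforin, whereas CD4 T cells read MHC class II and help or restrain other cells. In many tissues some T cells stop recirculating and remain as resident memory cells, which typically carry CD69 and CXCR6 and lack the lymph node homing receptor CCR7. The pituitary is a hormone-secreting gland whose blood supply lies outside the blood-brain barrier.

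The 4 sets held 84470879, 92665029, 87933632 and 81621358 UMIs. T cells numbered 91, 78, 79 and 108 in sets 1 to 4, or 0.901%, 0.786%, 0.780% and 1.09% of the kept barcodes of each set. They were shallow, with a median of 2200.5 UMIs (range 635 to 27894) and 1148 genes, against a median of 7658 UMIs in the 39688 other kept barcodes. Their UMIs summed to 1156700, so levels below are given as CPM, the UMIs of a gene in every 1000000 UMIs of a class. The 2 comparison classes used most were 60 NK cells (median 2428 UMIs, sum 192796), taken by NK genes and absence of the T cell rule genes, and 1245 barcodes with endothelial genes (median 4274 UMIs). The 14614 barcodes with 25% or more of their UMIs from Gh (median 10502 UMIs) served with the endothelial ones as classes that should lack T cell transcripts. The endothelial barcodes were taken without any UMI of the T cell rule genes. Their low shares of other T cell genes are therefore partly set by that gate, which the Gh-rich barcodes did not have. No 2 T cells carried the same barcode sequence, and 3 T cell barcodes were also kept in another set.

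**Figure D1:**
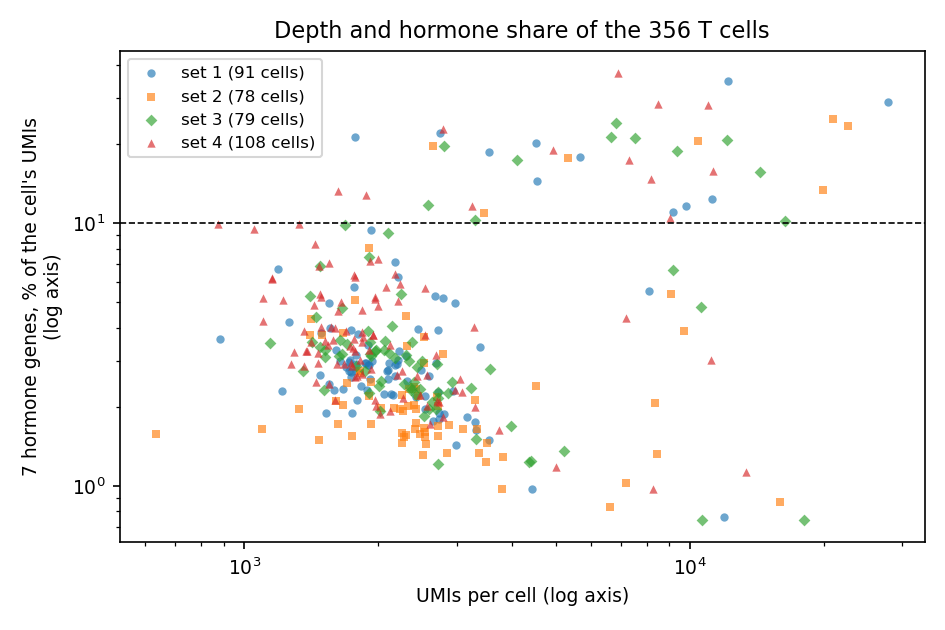
Each point is a T cell, placed by its UMIs (log axis) and by the percent of its UMIs from 7 pituitary hormone genes, (log axis), and marked by its barcode set; the dashed line is at 10%. Most T cells lie near the median of 2200.5 UMIs and 2.93% hormone UMIs, and the 41 cells at or above 10% are mostly deeper, with a median of 6894 UMIs.

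Hormone transcripts were present in the T cells and set the scale of every level given here. Hormone genes made up 7.86% of all T cell UMIs, against 29.4% in the other barcodes. Gh reached 48024, 65215, 46708 and 31312 CPM in sets 1 to 4 of the T cells, Prl (prolactin) 41688, 3924, 4330 and 35545 CPM, and Pomc (the precursor of corticotropin) 1134, 2492, 21272 and 11195 CPM. The 41 T cells with 10% or more hormone UMIs held 29.5% of all T cell UMIs, and 37 T cells were marked as possible doublets by Scrublet, 26 of them among those 41. The hormone-rich T cells had UMIs of Ccl5 in 85.4%, Ptprc in 85.4% and a CD8 gene without Cd4 in 61.0%. Among the other 315 T cells the shares were 85.4%, 90.5% and 58.1%. Without the hormone-rich cells Ccl5 was at 9443 CPM, in place of 7417 CPM, and Cxcr6 at 267 CPM, in place of 206 CPM, and 110 of 159 named gene levels moved beyond their counting interval. Whether these barcodes hold 2 cells was not tested.

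The markers of other cell types are given here as sums of their levels in T cells. Of 7 macrophage markers 2 had any UMI, at 13.0 CPM in sum (9.97 to 17.8 CPM over sets) against 345 CPM in the rest, and C1qa, C1qb, Csf1r, Mrc1 and Adgre1 were at 0, the first 2 of these by the rule. Of 7 B cell markers 2 had UMIs, at 41.5 CPM (29.9 to 49.8 CPM over sets) against 25.7 CPM in the rest, with Cd79a, Ms4a1, Ighd and Pax5 among those at 0. Of 7 dendritic cell markers 3 had UMIs, at 32.9 CPM (23.8 to 42.8 CPM over sets) against 174 CPM in the rest. Endothelial markers summed to 214 CPM in T cells (21.4 to 377 CPM over sets) and 122 CPM in the rest, and red cell markers to 169 CPM (46.5 to 384 CPM) and 141 CPM. Fibroblast markers summed to 134 CPM in T cells (24.97 to 316 CPM over sets) and 149 CPM in the rest, and stem or folliculostellate markers to 85.6 CPM (19.9 to 250 CPM) and 181 CPM. At most 6 T cells had UMIs of 2 or more genes of any of these lists. Of 8 markers of ILC2, a type of innate lymphoid cell, 7 had UMIs, at 359 CPM (316 to 408 CPM over sets) against 99.0 CPM in the rest, and 43 T cells (12.1%) had 2 or more of them. Gonadotroph and thyrotroph markers summed to 493 CPM in T cells and 4888 CPM in the rest, with 2 or more in 24 T cells (6.74%). All 10 NK markers had UMIs, at 608 CPM (401 to 758 CPM over sets) against 9.21 CPM in the rest, and 73 T cells (20.5%) had 2 or more of them. At least 2 of the 4 genes used to take NK cells were carried by 25 T cells (7.02%).

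The genes of the receptor complex are given first, as a check of the name T cell. Cd3e, which encodes the epsilon chain of CD3, was at 590, 568, 589 and 578 CPM in sets 1 to 4, Cd3d at 551, 518, 514 and 513 CPM and Cd3g at 800, 708, 713 and 728 CPM. Trac, the constant region of the receptor's alpha chain, was at 348, 352, 385 and 340 CPM. These 4 genes made the selection, so their levels in any set are no finding. Trbc2, a beta chain constant region outside the rule, was at 764, 678, 724 and 741 CPM and at 726 CPM in the pool (exact Poisson 95% interval 678 to 777). It was found in 80.6% of T cells, against 0.402% of endothelial and 0.370% of Gh-rich barcodes. UMIs of an alpha or beta constant gene (Trac, Trbc1 or Trbc2) were present in 338 T cells, or 94.9%. Trac is a rule gene, so this share is partly set by the selection.

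The rule's edge was sharp in genes it did not use. T cells with exactly 2, 3 and 4 of the rule genes had Trbc2 UMIs in 72.7%, 79.2% and 88.6% and Ccl5 UMIs in 81.8%, 83.8% and 90.4%, at median depths of 2000, 2182.5 and 2377.5 UMIs. The 399 barcodes with exactly 1 rule gene, which lie just outside the rule, had Trbc2 UMIs in 8.02% and Ccl5 UMIs in 7.52%, at a median depth of 10556 UMIs.

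The Cd3d and Cd3g genes lie side by side and are read in opposite directions, which is why their promoters are shown together. The sequences are from RefSeq on build GRCm38.p6, from 250 bases before to 50 after 1 listed transcript start of each gene, written 5′ to 3′ on the gene's own strand. The annotated genes leave 1337 bases between them on chromosome 9, and the start used for Cd3d lies just inside the annotated gene. Capitals mark the core GGAAGT, on either strand, of the ETS family of transcription factors. Cd3d is at chr9:44981536-44981835 on the plus strand and Cd3g at chr9:44980382-44980681 on the minus strand.
Cd3d: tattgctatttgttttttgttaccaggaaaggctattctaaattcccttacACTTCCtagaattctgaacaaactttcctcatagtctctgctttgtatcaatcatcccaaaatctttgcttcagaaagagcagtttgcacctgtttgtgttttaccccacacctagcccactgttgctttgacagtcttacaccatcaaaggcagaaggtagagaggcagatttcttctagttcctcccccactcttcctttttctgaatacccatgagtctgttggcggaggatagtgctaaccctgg
Cd3g: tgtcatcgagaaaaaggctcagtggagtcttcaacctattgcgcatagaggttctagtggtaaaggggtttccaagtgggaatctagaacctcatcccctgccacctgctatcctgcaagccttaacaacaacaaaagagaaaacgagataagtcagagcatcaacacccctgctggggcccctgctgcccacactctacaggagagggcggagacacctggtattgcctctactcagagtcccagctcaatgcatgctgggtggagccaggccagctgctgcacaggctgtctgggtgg
The Cd3d window held 1 such core, 199 bases before the start on the reverse strand, and the Cd3g window held none. A match is a run of letters, not a shown binding site, and its absence says nothing of ETS factors at Cd3g.

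Against all other kept barcodes, levels of genes of T cell receptor signalling were higher in T cells. A gene was counted as higher where its CPM ratio was at least 4 in the pool and at least 2 in each of the 4 sets, among 6966 genes that averaged at least 20 CPM over both groups and were not used by the rule. By that measure 550 genes (7.90%) were higher and 40 (0.574%) lower in T cells, and the median log2 ratio over all compared genes was 0.13. The list of proximal signalling and costimulation genes has 26 members, all with UMIs in T cells, which summed to 5509 CPM in T cells and 83.6 CPM in the rest. Of these 23 were compared and all 23 were higher. A gene near 0 in the rest is compared only where its T cell level is high, so the counts of this and the other lymphocyte lists against the rest describe levels and support nothing. The list includes Lck, the kinase that phosphorylates CD3, at 303 CPM in T cells against 3.30 CPM in the rest, and the costimulatory receptor Cd28 at 412 against 0.759 CPM. Ptprc, which encodes the pan-leukocyte phosphatase CD45, was at 1000 CPM in T cells and 14.8 CPM in the rest, and had UMIs in 89.9% of T cells.

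The 20 genes with the largest ratios over the rest, among those with at least 50 UMIs in T cells, were almost all lymphocyte genes. They included Trgc2, Gzmk, Cd8a, Ctla4, Cd6, Themis, Trdc, Cd5, Icos, Cd8b1, Gimap7, Cd28, Ifng, Cxcr6, Ms4a4b, Gm2682, Fasl, Sh2d2a and Trbc1. Trgc2, a gamma chain constant region, headed them at 44.1 CPM in T cells against 0.0145 CPM in the rest. Sh2d2a, a T cell adaptor that binds Lck, was at 433 against 1.06 CPM, and Ms4a4b, a lymphocyte membrane protein, at 440 against 1.04 CPM. Because T cells were picked by CD3 genes, such ratios were bound to be large and are given as a description.

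**Figure D2:**
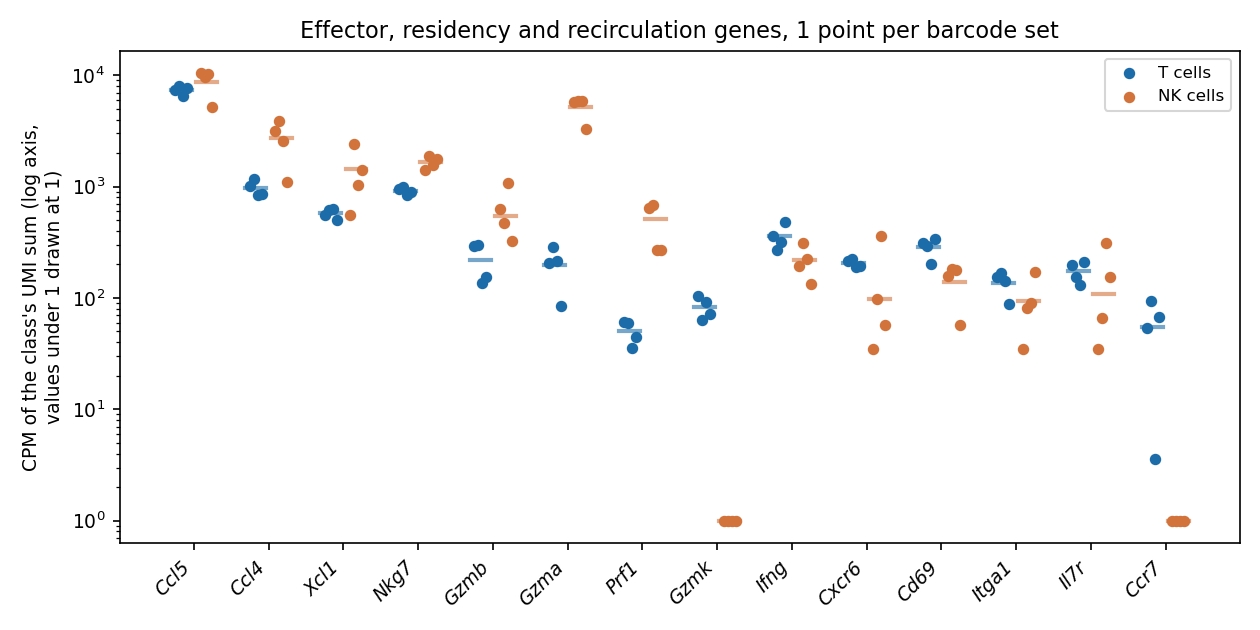
Levels of effector, residency and recirculation genes in T cells and NK cells (CPM, log axis; values under 1 are drawn at 1), with 1 point for each of sets 1 to 4 and a bar at the pooled level. In T cells Ccl5 stays between 6460 and 8065 CPM in every set, whereas Gzma ranges from 85.0 to 286 CPM and Ccr7 from 3.57 to 93.0 CPM.

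By coreceptor, CD8 cells were the largest class of T cells at the depth as sequenced. A UMI of Cd8a or Cd8b1 and none of Cd4 was found in 208 T cells, or 58.4% (exact binomial 95% interval 53.1% to 63.6%), with 63.7%, 59.0%, 57.0% and 54.6% in sets 1 to 4. A UMI of Cd4 and none of a CD8 gene was found in 20 T cells, or 5.62% (3.47% to 8.54%), of which sets 1 to 4 held 4, 6, 1 and 9. Only 2 T cells had both, and 126 (35.4%, 30.4% to 40.6%) had neither. In classes that should lack these genes the share of barcodes with a UMI was small: Cd8a was found in 44.9% of T cells, against 0.161% of endothelial and 0.171% of Gh-rich barcodes, and Cd4 in 6.18% of T cells, against 0.402% and 0.219%. The CD8 cells had a median of 2111.5 UMIs and those with neither gene 2313.5 UMIs. With each T cell thinned to 1000 UMIs, which 353 of the 356 allowed, the shares were 41.9% CD8, 3.02% CD4 and 54.9% neither, so the neither share depends on how deeply a cell was read.

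Genes of gamma delta and regulatory T cells follow. Trdc, the constant region of the delta chain, had UMIs in 22 T cells, or 6.18% (3.91% to 9.21%), with 2, 11, 6 and 3 in sets 1 to 4. Of these 22 cells, 18 also had a UMI of an alpha or beta constant gene, 11 carried at least 2 NK genes and 21 had UMIs of Ccl5. The constant genes counted include the rule gene Trac, so the first of these counts is partly set by the selection. A UMI of Trdc or of a gamma chain constant gene was found in 73 T cells (20.5%, 16.4% to 25.1%), with 16.3% of CD8 T cells and 30.2% of those with neither coreceptor gene. Trdc UMIs were found in 0 endothelial barcodes, and the Trdc level was 37.6 CPM in CD8 T cells, against 111.6 CPM in T cells with neither coreceptor gene. Foxp3, the defining transcription factor of regulatory T cells, had 3 UMIs in 2 T cells (0.562%, 0.0681% to 2.01%). Il17a, a cytokine of type 17 T cells, had 35 UMIs, all in 3 T cells, and none in any other kept barcode. Receptor variable segments were rarely captured: alpha chain segments had 46 UMIs in 35 T cells and beta chain segments 17 UMIs in 16 T cells.

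**Figure D3:**
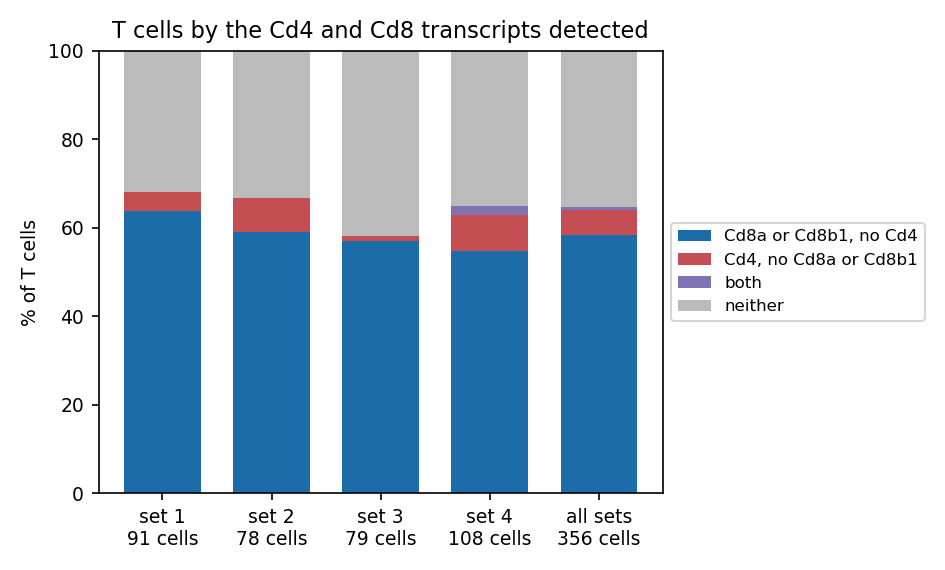
Stacked bars give the percent of T cells in each coreceptor class in sets 1 to 4 and in all sets together, at the depth as sequenced. CD8 cells are the largest class in all 4 sets (54.6% to 63.7%), followed by cells with neither gene (35.4% in the pool).

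Cytotoxic effector genes were high in T cells against the rest, and several were higher in the CD8 cells than in T cells with neither coreceptor gene. The 22 genes of the CD8 and cytotoxicity list summed to 11590 CPM in T cells and 83.2 CPM in the rest, and the 18 that were compared were higher in T cells, which the level needed for the comparison largely fixes. Ccl5, a chemokine that draws T cells and monocytes, was at 7413, 8065, 6460 and 7670 CPM in sets 1 to 4 of the T cells. It was found in 85.4% of T cells, against 1.04% of endothelial and 1.35% of Gh-rich barcodes. Nkg7, a granule protein of killer lymphocytes, was at 960, 984, 849 and 887 CPM. Both were high in all sets, with no set below 6460 CPM for Ccl5.

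The granzymes, proteases delivered into target cells, were uneven. Gzmb was at 292, 299, 136 and 153 CPM in sets 1 to 4, and had UMIs in 26.1% of T cells. Gzmk was at 103, 63.1, 92.7 and 71.4 CPM, in 20.5% of T cells. Gzma was at 206, 286, 214 and 85.0 CPM but in only 9.27% of T cells. Without the 25 T cells that carried at least 2 NK genes, Gzma in the pool was 110 CPM in place of 198 CPM, so these few cells held much of it. Prf1, the pore-forming perforin, was at 50.1 CPM in the pool, and Fasl, the ligand of the death receptor Fas, at 102 CPM.

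Promoters of 3 of these effector and residency genes are shown because RUNX factors, among them the CD8 lineage factor Runx3, are known regulators of CD8 genes. Runx3 itself was at 265 CPM in T cells, against 6.21 CPM in the rest. The windows are as for the CD3 genes, from RefSeq on GRCm38.p6, and capitals mark the hexamers TGTGGT or TGCGGT on either strand, which RUNX proteins can bind. Nkg7 is at chr7:43436888-43437187 on the plus strand, Cxcr6 at chr9:123806227-123806526 on the plus strand and Gzmb at chr14:56262285-56262584 on the minus strand.
Nkg7: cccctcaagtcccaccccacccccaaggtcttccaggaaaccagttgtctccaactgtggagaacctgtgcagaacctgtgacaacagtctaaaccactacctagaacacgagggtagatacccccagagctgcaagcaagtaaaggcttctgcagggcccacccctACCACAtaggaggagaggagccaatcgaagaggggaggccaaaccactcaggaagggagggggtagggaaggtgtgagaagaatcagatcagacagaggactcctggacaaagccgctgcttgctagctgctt
Cxcr6: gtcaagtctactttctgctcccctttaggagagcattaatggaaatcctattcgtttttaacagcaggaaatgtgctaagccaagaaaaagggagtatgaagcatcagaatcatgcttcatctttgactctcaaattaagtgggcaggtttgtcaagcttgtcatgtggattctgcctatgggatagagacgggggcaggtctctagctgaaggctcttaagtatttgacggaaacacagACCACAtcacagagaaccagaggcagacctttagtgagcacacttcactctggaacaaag
Gzmb: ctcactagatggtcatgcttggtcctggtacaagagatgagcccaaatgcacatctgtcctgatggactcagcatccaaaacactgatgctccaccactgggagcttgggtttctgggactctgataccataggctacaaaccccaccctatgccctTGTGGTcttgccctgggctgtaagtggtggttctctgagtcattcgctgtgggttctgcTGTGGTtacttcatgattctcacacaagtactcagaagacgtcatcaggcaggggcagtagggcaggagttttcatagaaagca
The hexamer lies 83 bases before the start in Nkg7, 10 bases before it in Cxcr6, and 93 and 34 bases before it in Gzmb. It was found in 103 of the 396 promoters given for the 550 genes higher in T cells than in the rest (26.0%). Among the 6031 promoters given for the 7632 genes compared against the rest or against NK cells it was found in 20.7%, and in 22.5% of all 27025 promoters. The ETS core was found in 34.6%, 30.4% and 24.1% of the same sets. The 2 motifs overlapped in 28 of the 27025 promoters and in none of the 5 shown. These shares describe letters in windows of 300 bases and show no binding.

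CD8 T cells carried more of the effector genes than T cells with neither coreceptor gene. A gene was counted here at a ratio of at least 2 in the pool and the same direction in each set; of 6818 genes compared, 119 (1.75%) were higher and 159 (2.33%) lower in CD8 T cells. Of 17 compared genes of the cytotoxicity list 6 were higher: Ccl5, Eomes, Gzmb, Gzmk, Nkg7 and Prf1 (list median log2 ratio 0.69, against 0.00 over all compared genes). Ccl5 was at 10286 CPM in CD8 T cells and 3960 CPM in those with neither gene, a ratio of 2.60 (95% counting interval 2.47 to 2.74), and it had UMIs in 96.6% and 73.0% of the cells. Gzmk was at 133 and 21.9 CPM (ratio 6.09, 3.16 to 13.2). Eomes, a transcription factor of effector and memory CD8 cells, was at 146 and 39.4 CPM (ratio 3.70, 2.22 to 6.52).

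Pdcd1, the inhibitory receptor PD-1, was among the 10 largest ratios, at 98.8 CPM in CD8 T cells and 21.9 CPM in T cells with neither gene (ratio 4.51, 2.30 to 9.87). It had UMIs in 19.2% of CD8 T cells and 4.76% of the others. Going the other way, Satb1, a chromatin organiser needed in early T cells, was at 118 CPM in CD8 T cells and 372 CPM in T cells with neither gene, and Maf, a transcription factor of helper and gamma delta T cells, at 83.1 and 254 CPM. Dcn, Rbpms, Cryab and Gstm1 were also among the 10 lowest ratios, and these rested on few cells: the 99 Dcn UMIs lay in 5 T cells. Dcn was also at 549 CPM and Rbpms at 557 CPM in endothelial barcodes, so other cells' transcripts move with the neither class, and their part in it was not tested.

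The 20 CD4 T cells were too few for more than a description. Their UMIs summed to 57693, in which 3 UMIs already make 52.0 CPM, and set 3 held 1 such cell. With that in view, 529 of 6453 compared genes (8.20%) were higher and 37 (0.573%) lower in CD8 than in CD4 T cells. A gene could be counted as lower only if the 1 CD4 cell of set 3, with 2638 UMIs, held a UMI of it, and without set 3 the counts were 589 and 194, so nothing is read from their balance. Ccl5 was at 10286 CPM in CD8 T cells and 1317 CPM in CD4 T cells (ratio 7.81, 6.23 to 9.92) and had UMIs in 96.6% and 45% of them. Ccl4, a chemokine of activated lymphocytes, was at 1300 and 52.0 CPM, and Gzmb at 310 and 17.3 CPM, resting on 3 and 1 UMIs in the CD4 cells, with 95% counting intervals of the ratio from 8.52 to 122 and from 3.18 to 711.

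Of 16 compared genes of the naive and recirculating list 3 were counted as lower in CD8 than in CD4 T cells, where 0.573% of all compared genes were. None of 10 compared genes of the CD4 helper and regulatory list was, but such a count needed a UMI in the 1 CD4 cell of set 3. The list median log2 ratios were close, at -1.13 and -1.17, against -0.09 over all compared genes. No contrast between the 2 lists is therefore read from the counts. Il7r, the receptor for the survival cytokine IL-7, was at 110 CPM in CD8 T cells and 468 CPM in CD4 T cells (ratio 0.235, 0.149 to 0.380). Tcf7, a transcription factor of naive and memory T cells, was at 80.0 and 312 CPM (ratio 0.256, 0.147 to 0.466), and S1pr1, which lets T cells leave tissue, at 51.7 and 260 CPM (ratio 0.199, 0.105 to 0.394). Icos, a costimulator of helper cells, was at 190 and 589 CPM and Ifng, the cytokine interferon gamma, at 378 and 555 CPM, but neither had the same direction in every set together with a 2-fold ratio.

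Residency genes were high in T cells against the rest, and Ccr7 was found in few T cells. Of 17 compared genes of the residency and memory list 12 were higher in T cells than in the rest, where 7.90% of all compared genes were. Members near 0 in the rest were compared only where their T cell level was high, so this count describes levels and supports nothing. Against NK cells none of 17 was higher and 1, Ccr2, was lower, where 1.88% and 1.37% of all compared genes were. The list summed to 4142 CPM in T cells and 4290 CPM in NK cells. Cxcr6, a chemokine receptor of resident T cells, was at 217, 223, 189 and 194 CPM in sets 1 to 4, and it was found in 37.9% of T cells, against 0.161% of endothelial and 0.226% of Gh-rich barcodes. Cd69, which holds T cells in tissue by opposing the S1PR1 receptor, was at 309, 292, 203 and 340 CPM, in 47.5% of T cells, against 0.482% and 0.322%. By CPM set 3 was the lowest for both, whereas by cells Cxcr6 was found in 35.2%, 42.3%, 43.0% and 33.3% of the T cells of sets 1 to 4.

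Other members of the list varied. Rgs1, a brake on chemokine receptor signalling, was at 533 CPM in T cells and 30.9 CPM in the rest, and Itga1, the collagen-binding integrin CD49a, at 137 and 6.08 CPM, but Itga1 was also at 114 CPM in endothelial barcodes. Itgae, the integrin chain CD103 that binds E-cadherin, was at 39.1, 29.9, 17.8 and 23.8 CPM, in 7.58% of T cells, against 1.88% of the much deeper Gh-rich barcodes. Zfp683, which encodes the residency factor Hobit, had 8 UMIs.

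Of 14 compared genes of the naive and recirculating list 6 were higher in T cells than in the rest (Ccr7, Il7r, Lef1, Ly6c2, S1pr1 and Tcf7). The list median log2 ratio was 1.44, and 7.90% of all compared genes were higher. Ccr7, the receptor that guides T cells to lymph nodes, was at 53.3, 93.0, 3.57 and 68.0 CPM in sets 1 to 4, in 24 T cells, and set 3 was almost without it. In the 130 B cells taken in the same way Ccr7 was at 295 CPM, so the transcript was captured in this preparation.

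Against NK cells, the nearest other class, T cells had more of the receptor signalling genes and less of the NK receptor genes. The classes were taken by CD3 and NK genes, so differences in these directions were partly set by the gates. A gene without UMIs in NK cells was compared only where its T cell level was high. The counts below therefore describe levels and support nothing. A gene was counted at a ratio of at least 3 in the pool and the same direction in each set. Of 6771 genes compared, 127 (1.88%) were higher and 93 (1.37%) lower in T cells than in NK cells. Of 24 compared signalling genes 8 were higher in T cells, among them Cd5, Cd6, Grap2, Icos, Lat, Themis and Ubash3a. Cd6, a coreceptor that tunes T cell receptor signals, was at 295, 196, 200 and 170 CPM in sets 1 to 4 of the T cells and had no UMI in NK cells, which against a floor of 3 counts over the class makes it at least 13.8-fold higher. Cd5, a related receptor, was at 133 CPM in T cells and without a UMI in NK cells, at least 8.56-fold higher. Lat, the scaffold of the receptor signal, was at 221 and 31.1 CPM (ratio 7.11, 3.22 to 19.6), whereas Lck, which NK cells use too, was at 303 and 244 CPM (ratio 1.24, 0.916 to 1.73).

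The beta chain constant genes differed from each other. Trbc2 was at 726 CPM in T cells and 171 CPM in NK cells (ratio 4.24, 2.997 to 6.20), but Trbc1 was at 322 and 399 CPM (ratio 0.805, 0.628 to 1.04) and had UMIs in 66.7% of NK cells. The genes are near-identical copies, and how reads were divided between them was not tested.

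**Figure D4:**
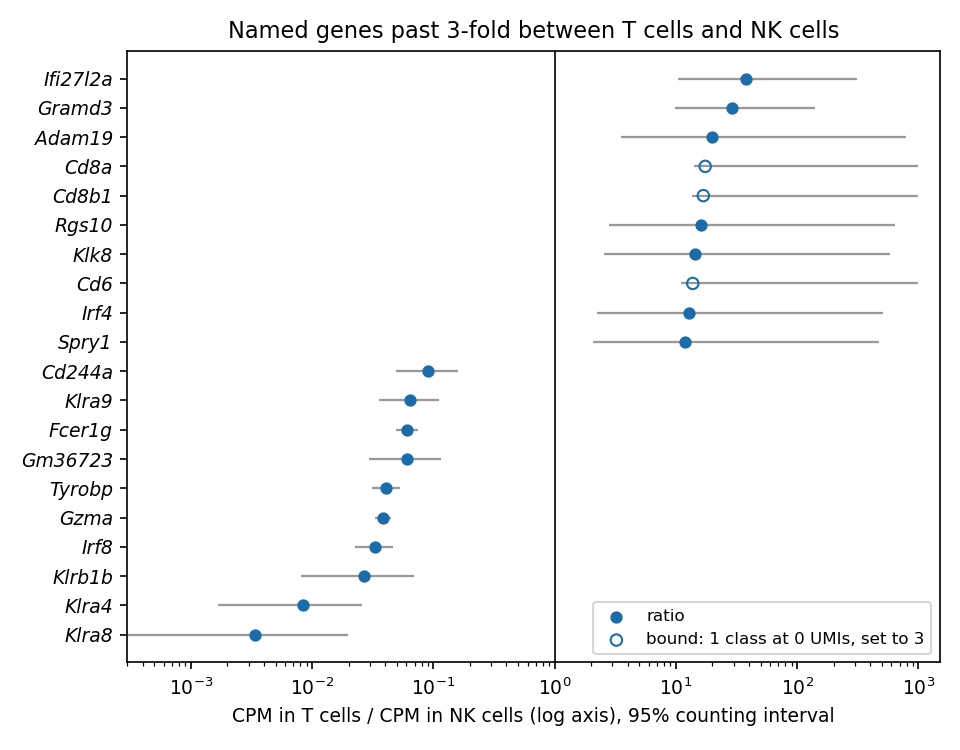
Ratio of T cell to NK cell CPM (log axis) for the 10 largest ratios in each direction, with 95% counting intervals as lines; lines without an upper limit end at 1000, and open circles are bounds. Cd6 (at least 13.8) and both CD8 genes had no UMI in NK cells, and Gzma (0.0384) and the Klra genes lie far to the left.

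Genes of the CD8 and cytotoxicity list went in both directions. Of 19 compared genes 3 were higher in T cells than in NK cells (the coreceptor genes Cd8a and Cd8b1, and Gzmk) and 6 lower (Gzma, Klrc1, Klrc2, Klrd1, Klrk1 and Prf1). Over all compared genes 1.88% were higher and 1.37% lower. The 3 higher genes had no UMI in NK cells, so they were compared only through their T cell level. Gzma was at 198 CPM in T cells and 5151 CPM in NK cells (ratio 0.0384, 0.0332 to 0.0444), found in 9.27% and 58.3% of the cells. Prf1 was at 50.1 and 513 CPM (ratio 0.0976, 0.0694 to 0.136). Gzmk was at 82.1 CPM in T cells and had no UMI in NK cells, at least 5.28-fold higher. Ccl5 was close, at 7417 CPM in T cells and 8724 CPM in NK cells (ratio 0.850, 0.807 to 0.896).

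The genes with the largest ratios over NK cells included Ifi27l2a, an interferon-induced gene, at 390 and 10.4 CPM (ratio 37.6, 10.3 to 311), and Gramd3 at 449 and 15.6 CPM (ratio 28.8, 9.81 to 140), with 2 and 3 UMIs in NK cells. Adam19, a membrane protease, followed at 104 and 5.19 CPM, resting on 1 UMI in NK cells (counting interval of the ratio 3.52 to 797). At the other end were the NK receptor genes Klra8 and Klra4, with 1 and 3 UMIs in T cells against 254 and 311 CPM in NK cells. Irf8, a transcription factor of NK and myeloid cells, was at 34.6 and 1053 CPM, and the signalling adaptors Tyrobp and Fcer1g were at 61.4 and 1504 CPM and at 115.8 and 1904 CPM. Fcer1g and Tyrobp were also lower in CD8 T cells than in T cells with neither coreceptor gene, at 69.0 and 197 CPM and at 25.1 and 118 CPM.

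Chemokines and cytokines were led by the chemokine genes. Of 9 compared cytokine genes 8 were higher in T cells than in the rest, where 7.90% of all compared genes were. Members near 0 in the rest were compared only where their T cell level was high, so this count supports nothing. Ifng was at 363, 273, 317 and 486 CPM in sets 1 to 4 of the T cells, in 39.9% of T cells against 0.241% of endothelial and 0.150% of Gh-rich barcodes, and at 218 CPM in NK cells (ratio 1.65, 1.2003 to 2.33). Xcl1, which draws cross-presenting dendritic cells, was at 576 CPM in T cells and 1432 CPM in NK cells. Ccl3, a related chemokine, was lower in T cells by the size used here, at 90.8 and 560 CPM (ratio 0.162, 0.123 to 0.214). Ltb, a lymphotoxin subunit, was at 319 CPM in T cells and 1.47 CPM in the rest.

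Among receptors for such signals, 10 of 15 compared cytokine receptor genes and 10 of 10 chemokine and lipid homing receptor genes were higher in T cells than in the rest. Of all compared genes 7.90% were higher, and those near 0 in the rest were compared only where their T cell level was high. These counts and the integrin count below therefore describe levels and support nothing. Il21r, the receptor of the T cell cytokine IL-21, was at 219 CPM in T cells and 67.4 CPM in NK cells (ratio 3.24, 1.86 to 6.18). Il2rb, a chain of the IL-2 and IL-15 receptors, was at 278 and 903 CPM (ratio 0.307, 0.255 to 0.372), and Il18r1, the IL-18 receptor, at 36.3 and 119 CPM (ratio 0.304, 0.179 to 0.530). Gpr183, an oxysterol receptor that positions lymphocytes, was at 132 and 31.1 CPM (ratio 4.25, 1.91 to 11.8). Of 14 compared integrin and adhesion genes 12 were higher than in the rest, with Itga4, a chain of the VCAM-1 receptor VLA-4, at 268 CPM in T cells and 3.08 CPM in the rest.

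Inhibitory receptors were present at low levels. Of 6 compared genes 4 were higher in T cells than in the rest: Cd160, Ctla4, Pdcd1 and Tox, the last a transcription factor tied to chronic stimulation. Over all compared genes 7.90% were higher, and this count too is largely fixed by the level needed for the comparison. Pdcd1 was at 64.0, 89.7, 35.7 and 74.8 CPM in sets 1 to 4 and Ctla4, which competes for CD28 ligands, at 56.9, 63.1, 21.4 and 57.8 CPM, both lowest in set 3. Lag3 had 7, Tigit 8 and Havcr2 19 UMIs in all T cells. Mki67, a marker of dividing cells, had 21 UMIs in 12 T cells (3.37%). The 14 genes of the proliferation list summed to 782 CPM in T cells, against 2049 CPM in NK cells and 535 CPM in the rest, and 44 T cells (12.4%) had UMIs of 3 or more of them.

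**Figure D5:**
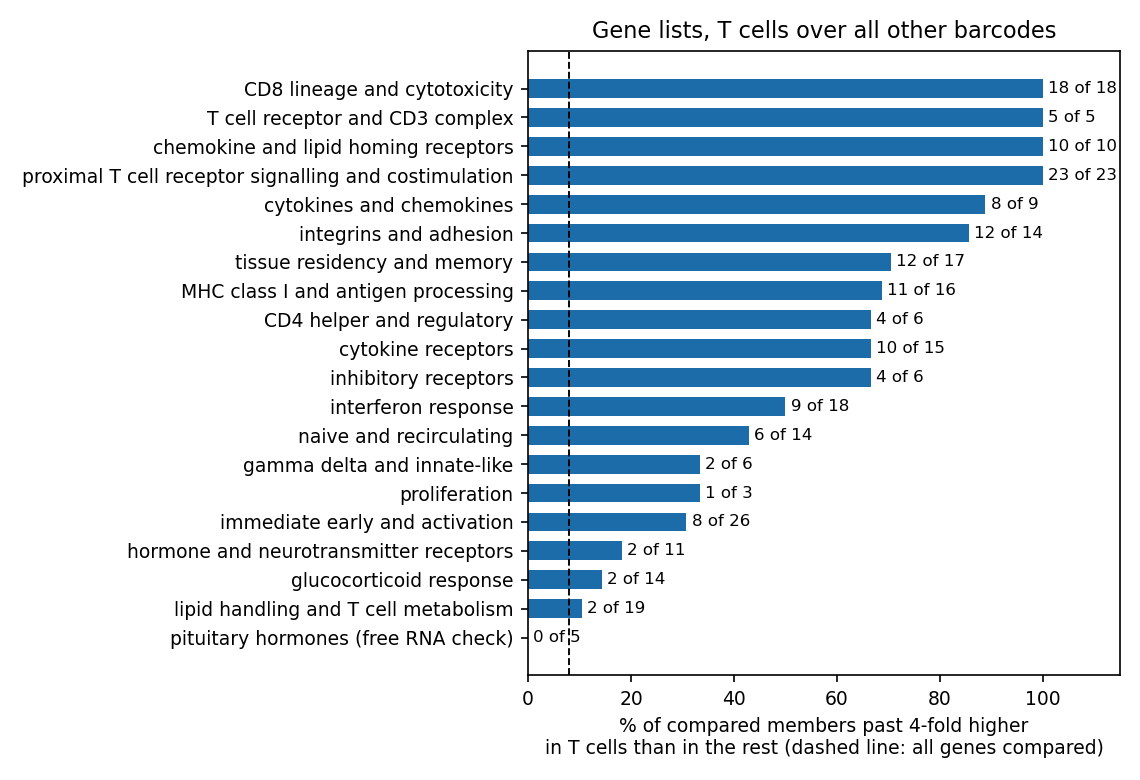
Bars give, for each gene list, the percent of compared members counted as higher in T cells than in all other kept barcodes, with the counts beside them; the dashed line is the 7.90% of all compared genes. The lipid list (2 of 19) lies near the line; the full bars of the signalling (23 of 23) and cytotoxicity (18 of 18) lists are largely fixed by the level needed for the comparison.

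Antigen presentation and interferon genes were higher in T cells than in the bulk of the gland, but not all were higher than in endothelial barcodes. The MHC class I list summed to 8501 CPM in T cells, 1520 CPM in the rest and 5199 CPM in endothelial barcodes. For the interferon list the sums were 2465, 746 and 3584 CPM, so endothelial barcodes were above T cells. Of 16 compared MHC class I and antigen processing genes 11 were higher than in the rest (median log2 ratio 2.28), where 7.90% of all compared genes were. The 11 included H2-K1, a class I heavy chain, at 2405 CPM in T cells and 379 CPM in the rest, and Psmb8, an immunoproteasome subunit, at 411 and 48.6 CPM. None of the 16 differed from NK cells by the size used, where H2-K1 was at 2510 CPM. With hormone genes left out of the library sizes, 7 of the 16 were higher, so the share of hormone UMIs moves with this count. Of 18 compared interferon response genes 9 were higher than in the rest, and 4 of 17 were higher than in NK cells (Ifi27l2a, Irf9, Isg15 and Zbp1). Over all genes compared with NK cells 1.88% were higher. Isg15, a ubiquitin-like protein induced by interferon, was at 110, 110, 53.5 and 126 CPM in sets 1 to 4 of the T cells and at 15.6 CPM, from 3 UMIs, in NK cells (ratio 6.45, 2.15 to 31.7).

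Of 26 compared immediate early genes, which can be induced by tissue dissociation, 8 were higher in T cells than in the rest, where 7.90% of all compared genes were. The list median log2 ratio was 0.32, and 5 were higher with hormone genes left out of the library sizes. Btg1, an antiproliferative gene of resting lymphocytes, was at 1797 CPM in T cells and 352 CPM in the rest, whereas Fos was at 2001 and 4787 CPM. Cd69 also belongs to this list, and the part of dissociation in its level was not tested.

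Receptors for hormones were listed because the gland secretes them. Of 11 compared hormone and neurotransmitter receptor genes 2 were higher in T cells than in the rest, with a list median log2 ratio of -0.47. With 7.90% of all compared genes higher, a count of 2 is no result about the list. These were Ptger4, a prostaglandin E2 receptor, at 85.6 CPM in T cells and 7.35 CPM in the rest, and Adora2a, the adenosine receptor that damps T cell activation, at 74.3 and 0.875 CPM. Nr3c1, the glucocorticoid receptor, was at 242 and 146 CPM, in 45.5% of T cells. Prlr, the prolactin receptor, was at 27.7 and 109 CPM, Ghr, the growth hormone receptor, had 3 UMIs in all T cells, Lepr, the leptin receptor, 1 UMI, and Sstr2, a somatostatin receptor, none.

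Genes of lipid handling and metabolism, listed because the study fed a high-fat diet, gave a count of higher genes near the 7.90% of all compared genes. Of 19 compared genes 2 were higher in T cells than in the rest, with a median log2 ratio of -0.06, which is no result about the list. Only 1 was lower, where 0.574% of all compared genes were, and nothing is read from 1 gene. Slc3a2, a chain of amino acid transporters used by activated lymphocytes, was at 483 CPM in T cells and 106 CPM in the rest, and Slc2a3, a glucose transporter, at 44.1 and 6.88 CPM. Cd36, a fatty acid receptor, had no UMI in T cells. Of 14 genes of the glucocorticoid response 2 were higher than in the rest (Cxcr4 and Il7r), also a share near that of all compared genes, and Tsc22d3, a classical target, was at 156 and 64.6 CPM.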

How the data were processed

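RNA of whole mouse pituitary was measured in 4 single-cell 3′ libraries. The authors deposited 1 matrix of UMI counts for all genes and barcodes, written by Cell Ranger 8.0.1 per the file headers. The submitters' processing notes also name Seurat, with neither version nor role, and a genome build is not given in the sources used here. These counts were used without correction and carried no library name for any barcode. Barcodes with at least 500 UMIs and at most 25% mitochondrial UMIs were kept, which removed 362 of 40406.

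The T cells and the gene lists were chosen with earlier results of these data known. NK cells had UMIs of at least 2 of Ncr1, Klrb1c, Klre1 and Eomes, and B cells of at least 2 B cell genes, Cd79a, Cd79b and Ms4a1 among them, both without the T cell rule genes. Endothelial barcodes had UMIs of at least 2 of Pecam1, Cdh5, Emcn and Plvap. UMIs were summed per class, given as CPM with exact Poisson 95% intervals, and ratios with exact conditional counting intervals. Shares have exact Clopper-Pearson 95% intervals. Genes averaging under 20 CPM over the 2 classes compared, and the genes of either gate, were left out of counts of genes. With 1 pooled sample no p-value was computed. The planned edgeR comparison of diets was not made. The size rules were also run on simulated Poisson counts, which hold no variation between cells. That run cannot speak to genes whose UMIs rest on few cells. Named genes were the 20 largest ratios over the rest (at least 50 UMIs), the 10 largest in each direction in the other comparisons (at least 30 UMIs), up to 5 genes of highest level in each list, and list members counted as higher or lower. A few genes that this rule would name are not reported here. Other genes named, Zfp683, Lag3, Tigit, Ghr, Lepr and Cd36 among them, are list members chosen after their values were seen. The comparison of CD8 T cells with T cells having neither gene was added after seeing the data. Scrublet in scanpy 1.11.5 failed at its automatic threshold in 2 of the 4 sets, so the top 8% of scores in each set were marked, and these barcodes were kept except in an alternative. Computations used pandas 2.3.3, scipy 1.17.1 and numpy 2.4.6 in Python 3.11.15, and promoters came from RefSeq (GRCm38.p6).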

Additional observations from a re-analysis of the deposited data

How the results depend on the processing

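No paired analysis was possible because the barcodes carry set numbers, not library names. The T cell share of 0.889% was 0.669% with at least 3 rule genes and 0.787% with hormone UMIs under 10%. Thinning to 1000 UMIs gave 41.9% CD8, 3.02% CD4, 54.9% neither and 3.73% Trdc, and no Foxp3 cell (0%) was left with 3 rule genes. Among all genes with at least 10 UMIs over both classes compared, 895 genes were higher in T cells than in the rest and 8406 lower, 740 were higher than in NK cells, 1513 were higher in CD8 than in CD4 T cells, and 242 were higher and 292 lower in CD8 T cells than in those with neither gene. The 40 genes lower than in the rest became 468 without barcodes marked by Scrublet, 410 without hormone-rich T cells, 176 with library sizes that omit hormone genes and 254 with free RNA subtracted, so this count depends on the hormone share. Leaving out each set in turn gave T cell shares of 0.822% to 0.926%, CD8 56.6% to 60.1%, CD4 4.44% to 6.86%, both 0% to 0.755%, neither 33.6% to 36.6%, Trdc 3.96% to 7.66% and Foxp3 0.360% to 0.755%. It gave 538 to 571 genes higher and 35 to 81 lower than in the rest, 184 to 215 and 135 to 164 against NK cells, 589 to 968 and 67 to 194 for CD8 against CD4, and 203 to 241 and 229 to 407 for CD8 against neither, since fewer sets had to share a direction. Of 159 named gene levels 109 moved without Scrublet-marked cells and 110 without hormone-rich cells, and 21 without T cells carrying NK genes, an alternative chosen after seeing the data. Gates at 2 UMIs left no CD4 cell in sets 1 and 3, and that comparison was not run. A T cell's median depth of 2200.5 UMIs limits all shares of cells with a UMI.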

Other observations

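Shares of the 22 T cells with a Trdc UMI are given here with exact binomial 95% intervals that cover counting error only. Cd69 had UMIs in 17 of them (77.3%, 54.6% to 92.2%) and Cxcr6 in 11 (50%, 28.2% to 71.8%). Among all T cells, which include these 22, the shares were 47.5% and 37.9%. Cells are not replicates, so no difference is read from these shares. At least 2 NK genes were found in 11 of the 22, with 7 of these cells in set 2, 3 in set 3, 1 in set 1 and none in set 4. Gzmb UMIs were found in 7 Trdc cells, all 7 of them in set 2, which held 11 of the 22. The median depth of the Trdc cells was 2704.5 UMIs, against 2200.5 UMIs for all T cells. These shares were singled out after their values were seen.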
